A study of Mus musculus with 2 samples.

Results

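Mesothelial cells of the aortic surface were taken from single-cell RNA sequencing of the thoracic aortas of 2 mice. Cells were chosen by the UMIs (unique molecular identifiers, 1 for each captured RNA molecule) of marker genes. A cell was counted as mesothelial when it held at least 3 UMIs of Msln and Upk3b together, at least 1 UMI of Krt19 or Krt8, and none of the leukocyte gene Ptprc or the endothelial genes Pecam1 and Cdh5. By this rule 387 cells were mesothelial, of 11442 filtered cells (more than 200 genes detected, from 1000 to 25000 UMIs, and less than 10% of UMIs from mitochondrial genes) among 15210 cells deposited. Aorta 1 held 254 of them, 3.77% of its filtered cells (exact 95% binomial interval 3.32 to 4.25), and aorta 2 held 133, or 2.83% (2.38 to 3.35). The mean share was 3.30% ± 0.661 (SD, n = 2). Such intervals cover counting error only, and the part of digestion and sorting in these shares was not tested.

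Both animals were C57BL/6J mice of genotype GFPiSMC, which carry Myh11-CreERT2 and the mT/mG reporter. Tamoxifen was injected intraperitoneally at 1 mg per day on 5 days, starting when the mice were 3 weeks old. Their age at collection was 12 weeks. There was 1 group, without an untreated or mutant arm, so cell types were compared within these aortas and no treatment was. In such mice Cre acts in cells that express Myh11, where it switches tdTomato off and GFP on. The transgene sits on the Y chromosome per the study's methods, so the model covers males only. Viable single cells of individual aortas were sorted after cold enzymatic digestion, with no selection for GFP.

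The mesothelium is a single layer of flattened cells that covers the serous surfaces of the body, among them the pleural face that the thoracic aorta shares with the chest cavity. It arises from the mesoderm of the coelomic lining, expresses keratins together with mesodermal transcription factors such as Wt1, and forms a slippery surface with microvilli through which water and solutes pass. On the aorta it lies outside the fibroblasts of the adventitia and is not part of the media that the study follows. The study does report collagen XVIII protein in mesothelial cells that cover the adventitia, which it names as visceral pericardium.

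Depth was close in mesothelial cells and the fibroblasts they were compared with. The deposited cells held 47009780 UMIs in aorta 1 and 30919996 in aorta 2. Mesothelial cells had a median of 6721 UMIs and 2743.5 genes in aorta 1, and of 6525 UMIs and 2644 genes in aorta 2. The fibroblasts (at least 5 Dcn UMIs, at least 1 of Pdgfra, none of Msln, Upk3b, Ptprc, Pecam1 or Cdh5; 1162 and 815 cells) had medians of 6141.5 and 5875 UMIs. Gates built in the same way gave 2917 smooth muscle cells, 1259 endothelial cells and 1802 leukocytes. The aortas shared 10 barcodes among filtered cells and none among mesothelial cells.

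The values that chose the cells are described here without a test. Msln encodes mesothelin and Upk3b a uroplakin, both surface proteins of this lining. Their summed UMIs ran from 3 to 108 in aorta 1 with a median of 27, and from 3 to 90 in aorta 2 with a median of 23. The space around the threshold was thinly filled: 6 and 3 cells held exactly 2 UMIs, just outside, while 23 and 10 cells held 3 to 5, of which 14 and 9 were members. In contrast, 6366 and 4497 cells held none. Msln stood at 1513 and 1447 UMIs per 1000000 UMIs of the summed cells (CPM, counts so scaled) in aortas 1 and 2, Upk3b at 2883 and 2946, Krt19 at 1168 and 1282, and Krt8 at 473 and 494.

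**Figure D1:**
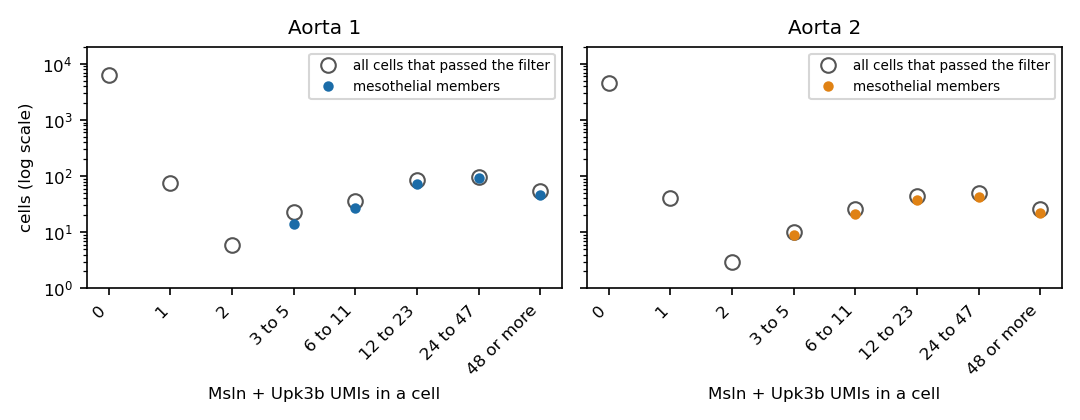
Cells of each aorta by their summed Msln and Upk3b UMIs (x axis, bins of UMIs per cell; y axis, cells on a log scale). Open circles are all filtered cells and filled circles are mesothelial members, which start at 3 UMIs; 6 and 3 cells lie at 2 UMIs, between 6366 and 4497 cells at 0 and the members.

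Upk1b, the marker of the label that the rule did not use, was found mainly in the same cells. Every other gate left out cells with an Msln or Upk3b UMI. The low Upk1b of those types is therefore partly set by the gates, and the values are a description. This partner of the uroplakins had at least 1 UMI in 43.7% of mesothelial cells of aorta 1 (37.5 to 50.04) and 36.8% of those of aorta 2 (28.6 to 45.6), with each cell thinned to 1000 UMIs. Without thinning the shares were 88.6% and 84.2%. Among thinned fibroblasts it was found in 2 of 1162 cells of aorta 1 (0.172%) and in 0 of 815 of aorta 2, which by a limit of 3 counts allows a share of up to 0.368% (exact binomial upper bound 0.452%). No thinned smooth muscle cell, endothelial cell or leukocyte of either aorta had a UMI. Its level was 556 and 515 CPM, against 0.398 and 0 in fibroblasts.

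Markers of other cell types were read in the same cells. Dcn, a small proteoglycan that defines fibroblasts in the gates used, was present in every mesothelial cell (lowest 2 UMIs, medians 25 and 32) at 5022 and 5921 CPM, below the 15679 and 14920 CPM of the fibroblasts chosen for it. Pdgfra had a UMI in 26 and 9 of the members. The 10 fibroblast markers, with Dcn and Pdgfra among them, summed to 10669 and 13129 CPM. They summed to 64829 and 66355 in fibroblasts and 3788 and 3827 in smooth muscle cells. The 5 mesothelial markers summed to 6593 and 6684 in the members. The 9 smooth muscle markers summed to 3462 and 2551 CPM, against 2626 and 1749 in fibroblasts and 50796 and 49699 in smooth muscle cells, which were chosen for Myh11, 1 of the 9. The 10 endothelial markers summed to 594 and 555 CPM, of which Kdr held 330 and 255, and the 10 myeloid markers to 112 and 104. Pecam1, Cdh5 and Ptprc, which these lists hold, are at 0 in members by the rule itself. Of 9 lung epithelial markers Hopx alone was found, and Sftpc, Sftpb and Scgb1a1 were at 0. Of 8 cardiomyocyte markers Myl7 carried nearly all of the 1039 and 914 CPM, while Actc1 and Nppa were at 0. Scrublet, which scores cells for resemblance to mixtures, called 18 members (7.09%) in aorta 1 and 2 (1.504%) in aorta 2, against 2.98% and 1.89% of all filtered cells.

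Genes that stood out in mesothelial cells against every other gated type were counted first, by size and with no test. Of 6119 genes with at least 20 UMIs in the mesothelial cells of each aorta, 217 (3.55%) were over 4 times higher in them than in each of the fibroblasts, smooth muscle cells, endothelial cells and leukocytes, in both aortas. The 15 of highest level among these were Rarres2, Efemp1, Gpm6a, Fabp5, Fxyd3, Nkain4, Hpgd, Ezr, Myl7, Atp1b1, Rbm28, Acaa2, Aprt, Rspo1 and Dpp4. Rarres2, which encodes the chemoattractant chemerin, stood at 6014 and 6175 CPM, against 719 and 815 in fibroblasts and 633 and 685 in smooth muscle cells. Gpm6a, a membrane glycoprotein of cell protrusions, stood at 1425 and 1467 CPM and below 54 in each other type. Hpgd, which breaks down prostaglandins, stood at 941 and 1219 CPM, with leukocytes next at 224 and 230. Some leading genes were shared in part with another type in this way, and others were nearly private to these cells. On average over the aortas 90.4% of all Myl7 UMIs of filtered cells, 86.6% of Fxyd3 and 86.4% of Upk1b fell in the mesothelial gate, a gate of 3.38% of the cells.

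**Figure D2:**
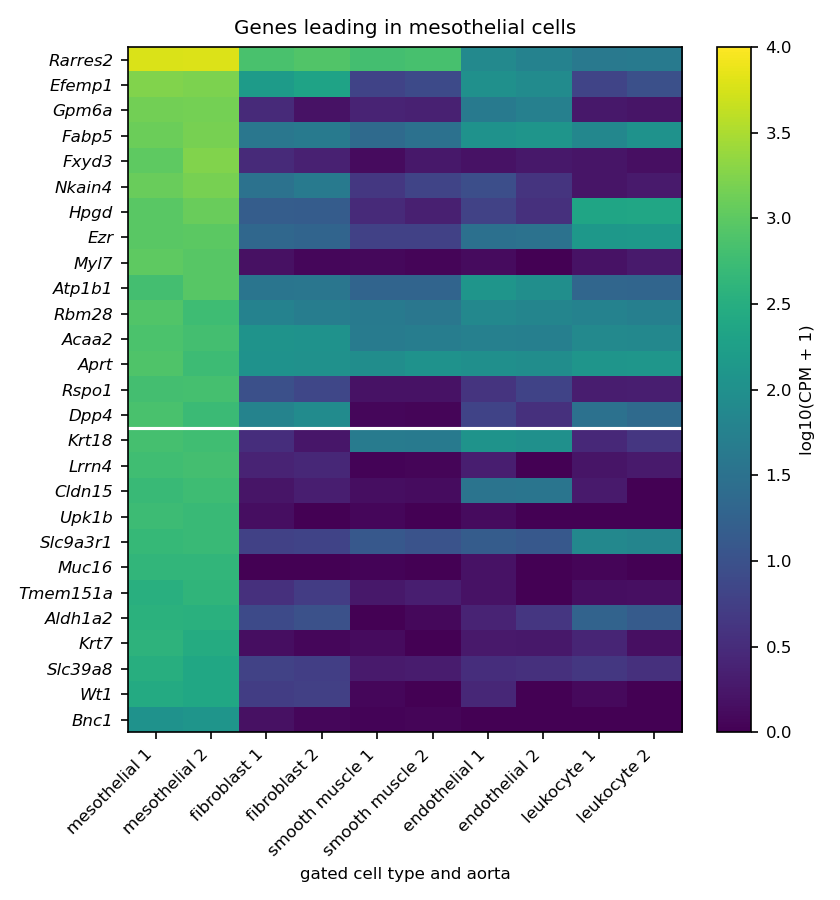
Levels of genes leading in mesothelial cells, as log10(CPM + 1), in each gated cell type of aortas 1 and 2 (columns). Rows above the white line are the 15 leading genes of highest level and rows below it are further leading members of the mesothelial gene list; the left columns are the brightest in every row, with leukocytes second for Hpgd and endothelial cells second for Krt18.

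The sequences before the start of 4 leading genes are given because these genes are nearly private to mesothelial cells and their control regions are where a search for shared letters would begin. They are the 4 of highest level among members of the mesothelial list that have over 75% of their UMIs in mesothelial cells and an entry in the RefSeq promoter table. Upk1b had none. Each window holds the 250 bases before the gene start used by the RefSeq promoter table (build GRCm38.p6), 5′ to 3′ on the strand of the gene. The windows lie at chr8:54779184-54779433 (plus strand) for Gpm6a, chr4:124986180-124986429 (plus strand) for Rspo1, chr2:132880863-132881112 (minus strand) for Lrrn4 and chr9:18674604-18674853 (minus strand) for Muc16. Capitals mark GGAATG, a core bound by TEAD factors, which was found at -125 in Gpm6a and at -196 in Lrrn4, counted from the gene start.
Gpm6a: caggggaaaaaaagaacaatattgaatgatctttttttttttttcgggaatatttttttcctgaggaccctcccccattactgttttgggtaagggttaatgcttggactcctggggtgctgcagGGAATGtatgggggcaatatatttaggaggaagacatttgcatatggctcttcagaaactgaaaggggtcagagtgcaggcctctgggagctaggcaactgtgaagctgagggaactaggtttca
Rspo1: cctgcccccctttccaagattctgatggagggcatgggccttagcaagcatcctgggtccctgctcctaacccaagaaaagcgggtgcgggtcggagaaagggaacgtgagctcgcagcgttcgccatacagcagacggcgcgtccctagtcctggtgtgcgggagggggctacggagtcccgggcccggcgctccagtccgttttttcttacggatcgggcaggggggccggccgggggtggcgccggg
Lrrn4: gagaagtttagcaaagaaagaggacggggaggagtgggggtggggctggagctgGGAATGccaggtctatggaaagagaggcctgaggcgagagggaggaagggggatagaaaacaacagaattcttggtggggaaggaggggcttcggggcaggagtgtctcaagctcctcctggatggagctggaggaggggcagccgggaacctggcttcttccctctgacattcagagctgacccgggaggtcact
Muc16: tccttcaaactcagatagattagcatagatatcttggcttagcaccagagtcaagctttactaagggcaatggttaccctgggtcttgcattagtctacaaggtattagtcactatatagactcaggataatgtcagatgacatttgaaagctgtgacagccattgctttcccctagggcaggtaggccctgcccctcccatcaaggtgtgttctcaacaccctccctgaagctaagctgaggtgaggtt

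GGAATG or its other strand CATTCC was in 12.6% of all 27025 promoter windows of this length. The letters AGATAA or TTATCT, a core bound by GATA factors, were in 10.3% of all windows and in none of these 4. A match is a description of these letters and not a bound site. The UMIs come from the 3′ ends of transcripts, so they do not show which start each gene uses.

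The first comparison was with fibroblasts, the cells that lie under this layer. Summed UMIs of each gated type in each aorta were tested with edgeR (n = 2 aortas), in a fit that all 5 gated types shared. Of 14314 genes tested, 1496 (10.5%) were higher and 1700 (11.9%) lower in mesothelial cells, at an adjusted p under 0.05 and a log2 fold change over 1 in size, 3196 (22.3%) in all. The median log2 fold change of all genes tested was -0.048. The 10 genes used by the gates are in none of these counts. Muc16, a surface mucin known as CA125, stood at 424 and 421 CPM and had no UMI in 1977 fibroblasts, so that it was at least 1788-fold higher by a floor of 3 UMIs over the fibroblasts. The sulfotransferase gene Chst4 (116 and 159 CPM), the FGF-binding protein gene Fgfbp1 (115 and 94.2) and the folate receptor gene Folr1 (73.3 and 69.8) also had none there, and were at least 551-fold, 456-fold and 305-fold higher. Myl7, the atrial light chain of myosin, stood at 1022 and 900 CPM against 0.531 and 0.194 (log2 fold change 11.05, SE 0.213, edgeR adjusted p = 8.65e-14). The other genes of the 12 largest differences upward were Wfdc2, Plet1, Ckmt1, Mpzl2, Tm4sf5, Upk1b and Slc26a3. Folr1, Ckmt1, Plet1, Ezr, Fxyd3, Rarres2, Nkain4, Dpp4, Atp1b1, Rspo1, Cyp2s1, Myoc, Penk, Ebf2, Fgf7, Eln, Mfap4, Lox, Ccn2, Col15a1, Col4a2, Itga8, Selp and Sox17 overlap a gene of the opposite strand. Whether counting used strand is not given in the sources used here, so UMIs of such partners may not be told apart.

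Fibroblast genes made up the other end. Myoc, which encodes myocilin, stood at 157 and 138 CPM in fibroblasts and had no UMI in mesothelial cells, at least 131-fold lower. Ly6a, the Sca-1 surface antigen, stood at 25.9 and 44.2 CPM against 1281 and 1806 in fibroblasts (log2 fold change -5.68, SE 0.232, edgeR adjusted p = 6.57e-11). C7, a terminal complement component, stood at 12.97 and 3.49 CPM against 475 and 478. The rest of the 12 largest differences downward were Pla1a, Ly6c1, Penk, Ebf2, Fgf7, Gpnmb, Hmcn2, Comp and Sfrp4. Ly6a and Ly6c1 belong to a family of near-identical copies, between which UMIs may be split or lost.

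Of the 28 genes in a list of mesothelial markers, 27 were tested. By edgeR 25 (92.6%, against 10.5% of all genes tested) were higher in mesothelial cells than in fibroblasts and none was lower. The median log2 fold change was 5.48. By DESeq2 none was lower either, and 1 was lower at an unadjusted p under 0.05. The prostacyclin synthase gene Ptgis (616 and 592 CPM against 289 and 286) and Cd200 (354 and 336 against 425 and 353) were not called, and Calb2, the calretinin gene, had no UMI in the members. Of 12 keratin and intermediate filament genes 9 were tested. By edgeR 4 (44.4%, against 10.5% of all genes tested) were higher and none was lower, with 1 lower at an unadjusted p under 0.05. DESeq2 gave the same counts of calls. With Scrublet's doublets removed 3 were higher and 1 lower, and without the 51 members that held a Pdgfra UMI or at least 5 Myh11 UMIs the counts were 4 and 1. The median log2 fold change was 0.30, but -0.25 without mesothelial aorta 1 and 1.20 without fibroblast aorta 1, so no direction is read from it. Of 4 uroplakin genes Upk1b alone was tested, and it was higher. Krt18 stood at 650 and 598 CPM against 2.39 and 0.777, Krt7 at 381 and 288 against 0.398 and 0.194, and Krt14 at 27.1 and 51.2 against no UMI, at least 148-fold. Vim, the filament of mesenchymal cells, was not called: it stood at 1611 and 1609.7 CPM against 2089.6 and 2340.2.

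Junction and surface genes of epithelia were higher in many cases. Of 34 junction and polarity genes 26 were tested. By edgeR 18 (69.2%, against 10.5% of all genes tested) were higher and none was lower, with 2 lower at an unadjusted p under 0.05. By DESeq2 none was lower either. The median log2 fold change was 3.55, or 2.802 with the 5 genes without a UMI on 1 side set to their bound. By edgeR 1 was lower with no filter on low counts (20 higher), without the same 51 members (20 higher) and without mesothelial aorta 2 (18 higher). Cldn15, a claudin of tight junctions, stood at 520 and 562 CPM against 0.664 and 1.17. Dsg2, a desmosomal cadherin, stood at 29.9 and 36.1 CPM with no UMI in fibroblasts, at least 135-fold higher. Cdh3, the classical P-cadherin, stood at 122 and 130 CPM against 0.133 and 0.971, and the polarity gene Pard6b at 44.0 and 55.8 against 0.133 and 0.194. Cdh1, the E-cadherin of most epithelia, was too low to be tested, at 0.564 and 2.33 CPM, or 1 and 2 UMIs. Of 18 genes of the apical surface and microvilli 16 were tested, with a median log2 fold change of 2.45. Of these 10 were higher (62.5%, against 10.5% of all genes) and 2 lower (12.5%, near the 11.9% of all genes). The ezrin gene Ezr stood at 937 and 990 CPM against 20.7 and 18.7 (log2 fold change 5.48, SE 0.110, edgeR adjusted p = 8.65e-14), and its partner Slc9a3r1 at 474 and 522 against 4.91 and 5.44.

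Genes that move water, ions and solutes were mostly higher. Of 23 such genes 20 were tested, 14 were higher (70.0%) and 1 was lower (5.0%), with a median log2 fold change of 4.43. Of all genes tested 10.5% were higher and 11.9% lower. The water channel gene Aqp1 stood at 1938 and 1797 CPM against 36.7 and 17.1 in fibroblasts (log2 fold change 5.96, SE 0.247, edgeR adjusted p = 7.35e-11). The chloride exchanger gene Slc26a3 (171 and 164 CPM, with 1 UMI in all fibroblasts), the sodium pump modulator Fxyd3 (1027 and 1752 against 1.99 and 1.36) and the zinc transporter gene Slc39a8 (323 and 238 against 5.05 and 4.47) were higher as well. Cftr, the chloride channel gene of cystic fibrosis, stood at 24.3 and 16.3 CPM with no UMI in fibroblasts.

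**Figure D3:**
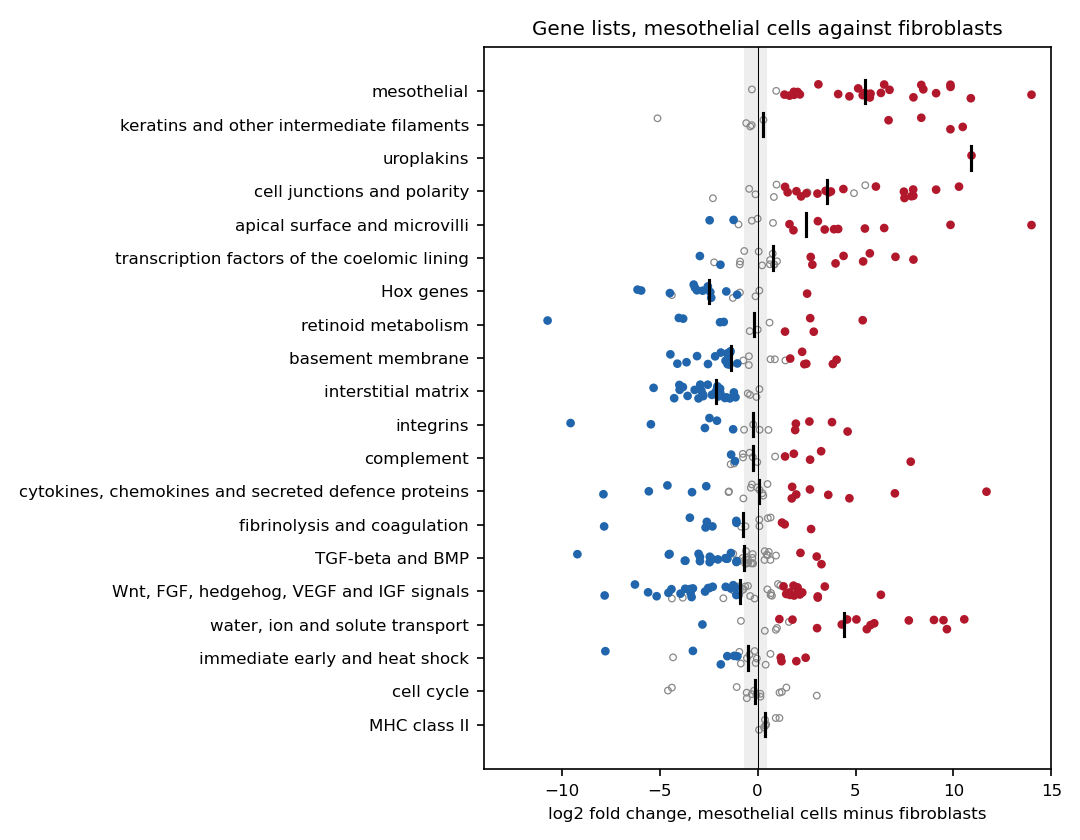
Log2 fold change of mesothelial cells minus fibroblasts for each tested gene of 20 lists (x axis; n = 2 aortas). Filled points passed the edgeR test with a log2 fold change over 1 in size, open points did not, black bars are list medians and the grey band is the interquartile range of all genes tested, from -0.64 to 0.41; mesothelial, junction and transport genes lie to the right, with medians of 5.48, 3.55 and 4.43, and interstitial matrix and Hox genes to the left, with -2.15 and -2.48. Points of genes with no UMI on 1 side depend on the prior count of the fit.

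Several transcription factors of the coelomic lining were higher. Of 27 genes 22 were tested, 8 were higher and 2 lower, Nr2f1 and Nr2f2 (median log2 fold change 0.80), where 10.5% and 11.9% of all genes tested were higher and lower. Wt1, a zinc finger factor required for the coelomic lining, stood at 276 and 242 CPM against 4.38 and 4.66 (log2 fold change 5.73, SE 0.216, edgeR adjusted p = 2.83e-11). Bnc1 (108 and 120 CPM against 0.531 and 0.194), Gata5 (46.3 and 51.2 against 0.531 and 0), Sox6 (84.6 and 108 against 2.39 and 1.55), Gata4 and Hand2 were higher too. The 19 Hox genes, which mark position along the body axis, went mainly the other way. Of these 18 were tested, 12 were lower (66.7%, against 11.9% of all genes) and 1 was higher (5.56%, against 10.5%). Hoxc8 had 1 UMI in 387 mesothelial cells, 0.564 and 0 CPM, against 22.7 and 23.3 CPM in fibroblasts. The median log2 fold change of the Hox list was -2.48 (-2.39 with the gene at its bound).

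Most interstitial matrix genes were lower. Of 30 genes of the interstitial matrix 29 were tested, and 25 (86.2%, against 11.9% of all genes tested) were lower. None of the list was higher by edgeR, by DESeq2 or at an unadjusted p under 0.05 (median log2 fold change -2.15). Lum, the proteoglycan lumican, stood at 51.3 and 13.96 CPM against 1457 and 1285, and Col1a1, a chain of type I collagen, at 712 and 832 against 8352 and 8515 (log2 fold change -3.58, SE 0.183, edgeR adjusted p = 7.04e-10). Fbln1, Fbln2, Fmod and Mfap2 were not called, and Fbln1 stood at 980.4 and 1238 CPM against 1106 and 1006. Mfap2, a microfibril protein, stood at 60.9 and 258 CPM against 123 and 119, and was called lower without the mesothelial cells of aorta 2 (log2 fold change -1.11, edgeR adjusted p = 0.000318). The basement membrane list split, with 27 of 30 genes tested. Of these 6 were higher (22.2%, against 10.5% of all genes) and 15 lower (55.6%, against 11.9%), with a median log2 fold change of -1.38. Lama5, the laminin chain of epithelial basement membranes, stood at 94.2 and 68.6 CPM against 5.44 and 3.69, and Fras1 at 160 and 155 against 10.1 and 10.1. Lama2, the laminin chain of mesenchymal basement membranes, stood at 37.2 and 6.98 CPM against 548 and 525, and Nid1 at 40.1 and 32.6 against 534 and 645. Of 16 integrin genes 15 were tested, 5 were higher and 6 lower (median -0.23), against the same 10.5% and 11.9% of all genes. Itga3, a laminin receptor subunit, was higher at 89.7 and 73.3 CPM against 3.45 and 2.72.

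The matrix and receptor transcripts that the study follows in smooth muscle were read in these cells too. Col1a2, Col3a1, Eln, Mfap4, Col15a1, Col4a2, Col4a5, Lox, Ccn2 and Bgn were lower in mesothelial cells than in fibroblasts, with log2 fold changes from -3.98 for Mfap4 to -1.41 for Col4a2. The elastin gene Eln stood at 641 and 585 CPM against 1532 and 1481. The receptor genes Tgfbr1 (31.0 and 39.5 CPM against 49.5 and 36.7) and Tgfbr2 (159 and 174 against 218 and 239) and the integrin genes Itga8 and Itgb1 were not called. Itga8 stood at 84.6 and 59.3 CPM against 116 and 105, and without the same 51 members it was lower, with a log2 fold change of -4.08 (edgeR adjusted p = 2.53e-08). Of 45 genes of TGF-beta and BMP signaling 44 were tested, 3 were higher (6.82%, against 10.5% of all genes tested) and 18 lower (40.9%, against 11.9%; median log2 fold change -0.69). The ligand gene Tgfb2 (355 and 213 CPM against 63.5 and 54.2), the inhibin chain Inhbb and Id1, a target of BMP signals (516 and 548 against 64.1 and 55.8), were the 3 that were higher.

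Col18a1, which encodes the basement membrane collagen that gives rise to endostatin (chr10:77052178-77166548, GRCm38, minus strand), stood at 127 and 156 CPM in mesothelial cells and 71.2 and 67.6 in fibroblasts. The levels did not overlap, and the log2 fold change of 0.88 (SE 0.122, edgeR adjusted p = 3.66e-05) was under the size set for a call. Without the same 51 members it was -0.07 (SE 0.157, edgeR adjusted p = 0.786), and with Scrublet's doublets removed it was 0.69 (edgeR adjusted p = 0.00944). Smooth muscle cells stood at 1138 and 1130 CPM, endothelial cells at 229 and 198, and 0.971% of all Col18a1 UMIs fell in mesothelial cells. The gene overlaps Slc19a1 of the opposite strand.

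Several secreted and signaling genes were higher. Of 16 complement genes 15 were tested, 5 were higher (33.3%, against 10.5% of all genes tested) and 2 lower (13.3%, near the 11.9% of all genes; median log2 fold change -0.25). C3, the central complement protein, stood at 4512 and 6105 CPM against 1127 and 1576 (log2 fold change 1.85, SE 0.332, edgeR adjusted p = 0.000402), C2 at 579 and 601 against 89.9 and 78.5, and the chaperone clusterin gene Clu at 1129 and 1205 against 108 and 118. Of 27 cytokines, chemokines and secreted defence proteins 23 were tested. Of these 8 were higher (34.8%, against 10.5% of all genes) and 5 lower (21.7%, against 11.9%), with a median log2 fold change of 0.09. Without the same 51 members, 22 were tested, 6 were higher and 10 lower (median -1.30). Il18, a cytokine of the interleukin-1 family, stood at 115 and 142 CPM against 8.23 and 11.1, and Lgals7, an epithelial galectin, at 393 and 673 against 4.65 and 2.33. Wfdc2 (200.3 and 582 CPM against 0 and 0.194), Slpi (90.3 and 444 against 10.1 and 7.19) and Lcn2 (36.1 and 67.5 against 0.664 and 15.2), secreted proteins of epithelial defence, were higher than in fibroblasts in both aortas. Slpi was higher still in leukocytes, at 1544 and 1155 CPM. In aorta 2 1 cell held 159 of the 382 Slpi UMIs, without which Slpi stood at 262 CPM, and 21.8% of cells had a UMI. Without the 7 cells of subcluster 3, a small group described with the subclusters, Lcn2 stood at 23.7 CPM in aorta 1. The Lcn2 call was lost without the mesothelial cells of aorta 2 (edgeR adjusted p = 0.0643) and with DESeq2 (adjusted p = 0.117).

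Of 55 Wnt, FGF, hedgehog, VEGF and IGF genes 54 were tested, 14 were higher (25.9%) and 21 lower (38.9%; median log2 fold change -0.92). The shares of all genes tested were 10.5% and 11.9%. Rspo1, which strengthens Wnt signals, stood at 632 and 649 CPM against 8.37 and 6.22 (log2 fold change 6.30, SE 0.135, edgeR adjusted p = 1.11e-13), and the ligand gene Wnt4 at 120 and 117 against 7.83 and 19.4. The cells of subcluster 3 held 88 of the 212 Wnt4 UMIs of aorta 1 and 19 of the 101 of aorta 2, and without them Wnt4 stood at 73.6 and 96.8 CPM. Met, the receptor of hepatocyte growth factor, stood at 81.8 and 84.9 CPM against 6.51 and 7.77, and Fgf9 at 51.9 and 32.6 against 4.91 and 4.66. The IGF-binding protein gene Igfbp5 stood at 12067 and 11387 CPM against 2176 and 3062 (log2 fold change 2.04, SE 0.243, edgeR adjusted p = 7.59e-06). Of 15 genes of retinoid metabolism 12 were tested. Of these 4 were higher (33.3%, against 10.5% of all genes) and 5 lower (41.7%, against 11.9%). The median log2 fold change of -0.20 was -1.26 without the same 51 members. Aldh1a2, which makes retinoic acid, stood at 356 and 350 CPM against 7.04 and 8.94 (log2 fold change 5.37, SE 0.176, edgeR adjusted p = 8.24e-12), while the retinol carrier gene Rbp4 stood at 48.5 and 25.6 against 598 and 603.

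Among 16 genes of fibrinolysis and coagulation, all tested, 3 were higher (18.8%) and 7 lower (43.8%). The shares of all genes tested were 10.5% and 11.9%. The list median was a log2 fold change of -0.73, or -1.81 without the same 51 members. The tissue factor gene F3 stood at 101 and 69.8 CPM against 851 and 943, and Thbd, the thrombomodulin gene, at 65.4 and 70.9 against 278 and 339. Of 20 immediate early and heat shock genes, 4 were higher and 6 lower (median -0.48), against the same 10.5% and 11.9% of all genes. Hspb1, 1 of the 4, stood at 1205 and 1246 CPM against 235 and 175. None of 14 cell cycle genes and none of 7 MHC class II genes was called against fibroblasts by edgeR or DESeq2, with 1 cell cycle gene called higher by edgeR with no filter on low counts. The medians were -0.12 and 0.40, and turned sign among the alternatives (from -1.09 without mesothelial aorta 1 to 0.14, and from -0.017 to 1.12 without fibroblast aorta 1). At an unadjusted p under 0.05 no cell cycle gene and 1 MHC class II gene differed, and with Scrublet's doublets removed 3 MHC class II genes were higher.

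Endothelial cells form the other lining of the aorta, on the blood side, and were compared in the same fit. Of 14314 genes tested 1668 (11.7%) were higher and 1653 (11.5%) lower in mesothelial cells, 3321 (23.2%) in all. The median log2 fold change of all genes tested was -0.024. Of the mesothelial list 24 were higher and 1 lower (median 6.11), of the junction list 16 were higher and 2 lower (3.28, or 2.53 with genes without a UMI on 1 side at their bound), of the apical list 8 were higher and 7 lower (0.21, but 1.22 and 0.92 without endothelial aorta 1 or 2 and -1.15 with no filter on low counts), of the transport list 14 were higher and 1 lower (4.05), and of the coelomic transcription factors 15 were higher and 1 lower (1.87). Against endothelial cells 11 of the interstitial matrix genes were higher and 8 lower (median -0.04). Without the same 51 members 9 were higher and 13 lower (median -0.47), and with cells of at least 5000 UMIs 9 were higher and 10 lower (median -0.42). All 7 MHC class II genes were lower (median -2.64). The 6 largest differences upward were Tm4sf5, the iron reductase gene Cybrd1, Slc26a3, the prolactin receptor gene Prlr, Cyp2s1 and Chst4. Prlr stood at 181 and 136 CPM and had no UMI in endothelial cells. The 6 downward were Myct1, Selp, Car8, Mall, Mmrn1 and Sox17, all without a UMI in mesothelial cells. Selp, the platelet adhesion molecule P-selectin, stood at 248.6 and 242 CPM in endothelial cells, at least 216-fold higher there than in mesothelial cells. Kdr, a VEGF receptor counted among the endothelial markers, stood at 330 and 255 CPM in mesothelial cells and 50.5 and 65.2 in endothelial cells (log2 fold change 2.37, edgeR adjusted p = 6.54e-09).

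Reporter transcripts were read at 1000 UMIs per cell against cells outside the Myh11 lineage. eGFP, which marks cells in which Cre has acted, had a UMI in 10.2% of mesothelial cells of aorta 1 (6.80 to 14.6) and 6.02% of those of aorta 2 (2.63 to 11.5), against 9.08% and 5.94% of leukocytes and 96.0% and 93.3% of smooth muscle cells. The shares in mesothelial cells lie at those of leukocytes, which Cre should not reach, and no expression is read from them. In aorta 1 643 of the eGFP UMIs of mesothelial cells, and in aorta 2 99, lay in the 22 and 5 cells of a subcluster with smooth muscle markers, described with the subclusters. Without thinning they were 32.7% and 24.8%, against 26.7% and 20.9% in leukocytes, at median depths of 6721 and 6525 UMIs in mesothelial cells and 5371 and 5356 in leukocytes. tdTomato, which cells without Cre action keep, had a UMI in 37.8% and 30.8% of mesothelial cells and in 2.04% and 3.16% of smooth muscle cells, which should lack it. Without thinning these shares were 78.7% and 71.4% against 7.401% and 8.41%, at median depths in smooth muscle cells of 7653 and 7538 UMIs. At 1000 UMIs per cell tdTomato was found in 33.1% and 28.9% of leukocytes and 29.3% and 21.5% of fibroblasts. In endothelial cells the shares were 67.3% and 69.2%. Without the same 51 members the eGFP shares were 6.48% and 3.33%.

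**Figure D4:**
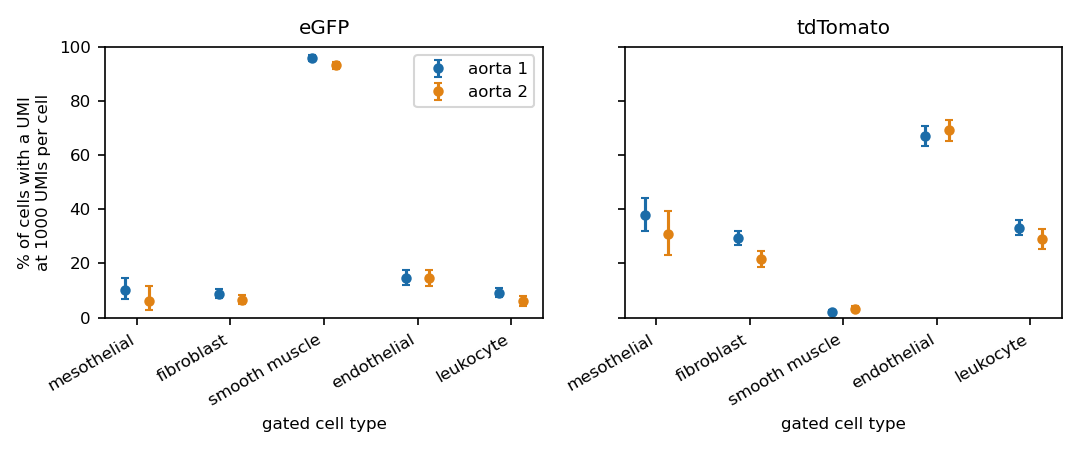
Share of cells with at least 1 eGFP UMI (left) or tdTomato UMI (right) at 1000 UMIs per cell, by gated cell type and aorta; bars are exact 95% binomial intervals. Mesothelial cells lie at 10.2% and 6.02% for eGFP, beside leukocytes, and at 37.8% and 30.8% for tdTomato, above smooth muscle cells and below endothelial cells.

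Mesothelial cells varied among themselves in a subset of genes. Over 2111 genes with at least 0.5 UMIs per cell, an index of spread (the variance of Poisson residuals, about 1 where counting alone sets the spread) had medians of 1.21 and 1.22, and was over 2 in both aortas for 213 genes (10.1%). The 10 highest were Acta2, Malat1, Mgp, Tagln, Gm42418, Tpm2, Igfbp5, Gsn, Slpi and Col1a1, which include smooth muscle and fibroblast genes. Acta2, smooth muscle actin, had a median of 1 UMI per cell in both aortas and highest cells at 366 and 422 UMIs. Members of the mesothelial list differed in this index. Upk1b had 2.14 and 1.73, Lrrn4 2.32 and 1.82, Gpm6a 3.56 and 2.74, Muc16 2.79 and 3.30, Krt18 3.32 and 4.44, and C3 20.4 and 11.1.

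Clustering of the 387 cells without the gate genes gave 4 subclusters, which are a description and carry no test. Subcluster 0 held 242 cells, 69.3% of those of aorta 1 and 49.6% of those of aorta 2, and was led by Fgfbp1, Cst9, Myl7, AU021092, Plet1 and Krt7. Subcluster 1 held 110 cells, 19.3% and 45.9%, and was led by Klk1, Cdkn1c, C4b, Mfap2, Igf1 and Pappa. The subclusters held different shares of the aortas, and the part of this in differences between the aortas was not tested.

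In subcluster 0 Msln stood at 2055 and 2367 CPM and in subcluster 1 at 587 and 737. Krt7 (531 and 547 against 125 and 66.8), Myl7 (1429 and 1771 against 364 and 215) and Kdr (469 and 394 against 86.4 and 146) went the same way. Cdkn1c, an inhibitor of the cell cycle, stood at 72.2 and 54.4 CPM in subcluster 0 and 2044 and 703 in subcluster 1, and the growth factor gene Igf1 at 41.1 and 36.3 against 417 and 547. Lrrn4 (672 and 692 against 638 and 653) and Wt1 (286 and 223 against 319 and 257) stood at like levels in both. Col18a1 was at 28.3 and 44.1 CPM in subcluster 0 and 191 and 171 in subcluster 1. Fibroblast markers moved with it, summing to 7234 CPM in subcluster 0 and 13807 in subcluster 1, with Col1a1 at 199 and 248.9 against 1013 and 938, while mesothelial markers summed to 8322 and 5285. Their part in the Col18a1 levels was not tested.

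The small subclusters carried genes of other cell types. Subcluster 2, with 22 and 5 cells, held 19 of the 20 members that Scrublet called, had a median of 11224 UMIs and was led by Acta2 and Ccn2. Its smooth muscle markers summed to 22274 CPM, against 509 in subcluster 0 and 815 in subcluster 1, its fibroblast markers to 22255 CPM and its mesothelial markers to 3396. Col18a1 stood at 472 and 784 CPM, and eGFP at 2531 and 1724 CPM against 25.9 to 56.6 in subclusters 0 and 1. Subcluster 3, with 7 and 1 cells, had no Msln UMI, none called by Scrublet, and a median of 12308.5 UMIs. It was led by Cxcl13, Saa3 and Enpp2 and held 456 of the 469 Cxcl13 UMIs of the members of aorta 1, with 431 of them in 1 cell. Its fibroblast markers summed to 23264 CPM and its mesothelial markers to 1458. Its Wt1 stood at 442 and 956 CPM and its Pdgfra at 351 and 478 CPM. The part of mixed cells in these subcluster levels was not tested. Single cells of subcluster 2 also carried much of the level of some genes named above: without the cell of most UMIs, a check added after the values were seen, C7 stood at 5.68 CPM in aorta 1, and in aorta 2 Ly6a stood at 16.5, Itga8 at 27.4, Mfap4 at 35.4, Ccn2 at 56.1 and Rbp4 at 16.5. Without subcluster 3, Ly6a stood at 13.7 CPM in aorta 1.

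**Figure D5:**
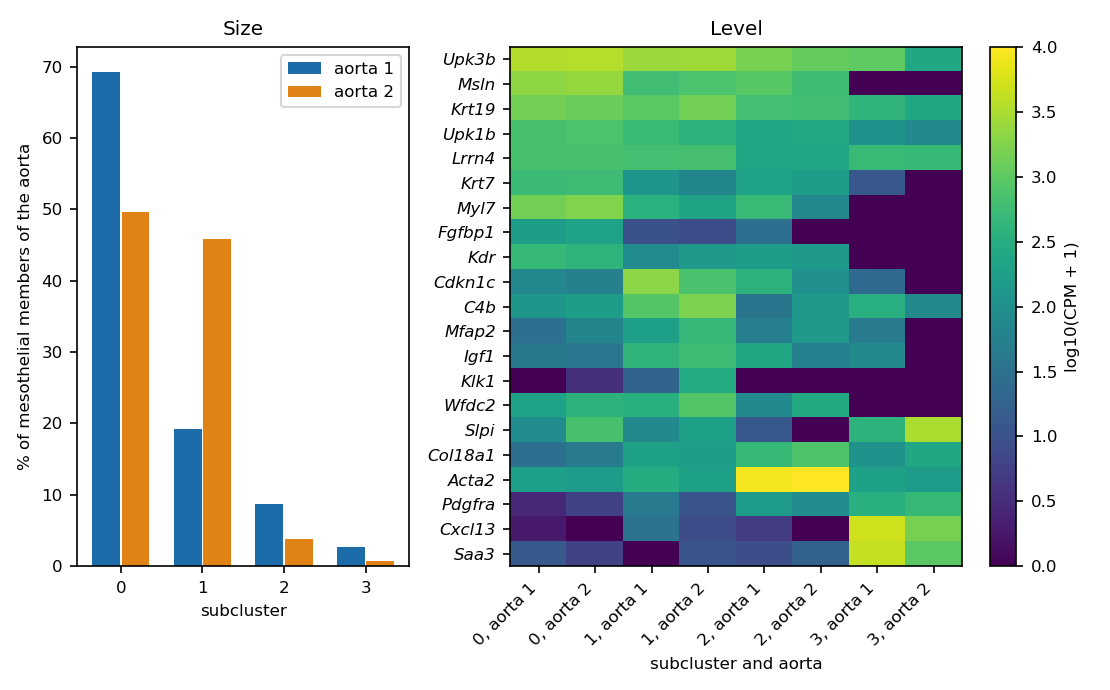
Left, share of the mesothelial cells of each aorta (y axis, %) in subclusters 0 to 3. Right, level of selected genes as log10(CPM + 1) by subcluster and aorta, where 0 is no UMI. Subclusters 0 and 1 hold 69.3% and 19.3% of aorta 1 and 49.6% and 45.9% of aorta 2, Acta2 is brightest in subcluster 2, and Cxcl13 and Saa3 in subcluster 3.

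Between the aortas, of 8226 genes, 240 were over 2-fold higher in mesothelial cells of aorta 1 and 56 in those of aorta 2, which with 1 library each is a description. Each count needed at least 20 UMIs in the aorta with the higher level. The members held 1772728 UMIs in aorta 1 and 859800 in aorta 2, so this bar was lower in CPM for aorta 1. Genes without a UMI in aorta 2 were in neither count. The counts are therefore not set against each other. Klk1, a tissue kallikrein with many close paralogs, between which UMIs may be split or lost, differed most: it had 6 UMIs in aorta 1 (3.38 CPM, exact Poisson interval 1.24 to 7.37) and 118 in aorta 2 (137 CPM, 114 to 164), and no UMI in fibroblasts, smooth muscle cells or leukocytes of either aorta, and stood at 0.892 and 1.26 CPM in endothelial cells. In aorta 2, 117 of its UMIs lay in 18 cells of subcluster 1. Amhr2, Sfrp4, Slpi and Prg4 were the next highest toward aorta 2, and Mmp3, Saa3, Cxcl13 and Cyp1b1 were among the 5 largest toward aorta 1. Most of these differences lay in a few cells. In aorta 2 1 cell held 21 of the 25 Sfrp4 UMIs, 1 held 25 of the 36 Prg4 UMIs and 1 held 159 of the 382 Slpi UMIs, and without that cell the levels were 4.71, 12.9 and 262 CPM, against 5.64, 9.03 and 90.3 in all cells of aorta 1. In aorta 1 1 cell held 56 of the 67 Mmp3 UMIs and 1 held 431 of the 469 Cxcl13 UMIs, and without that cell the levels were 6.23 and 21.7 CPM, against 3.49 and 25.6 in all cells of aorta 2. In aorta 2 1 cell likewise held 19 of the 22 Cxcl13 UMIs, and without it Cxcl13 stood at 3.54 CPM. Without subcluster 3 Cxcl13 stood at 7.72 CPM in aorta 1 and 3.54 in aorta 2. Saa3 stood at 231 and 22.1 CPM, and at 99.3 in aorta 1 without its highest cell and 8.90 without subcluster 3, which held 395 of its 410 UMIs there. Cyp1b1 stood at 15.8 and 2.33 CPM, and at 7.12 in aorta 1 without subcluster 3. Some of these genes stood higher in another type. Leukocytes were above the members for Saa3 (1781 and 1142 CPM), Slpi (1544 and 1155) and Prg4 (348 and 295). Fibroblasts were above them for Mmp3 (583 and 509), Sfrp4 (580 and 636) and Cyp1b1 (178 and 201).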

How the data were processed

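Viable single cells from the thoracic aortas of 2 mice of 1 group were profiled with 10x Genomics 3′ v3.1 chemistry. The authors aligned the reads to mm10 with eGFP and tdTomato added and deposited raw UMI counts per gene and cell, written by Cell Ranger 4.0.0 per the file headers; the labels also name Seurat 4.0. The 2 deposited matrices hold 32287 features. Labels give 6278 and 4300 cells after the study's own filter, and the filter used here left 6744 and 4698. No column of other samples was present (0 columns).

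Cells were gated on UMIs as given in the results, in Python 3.11.15 with scanpy 1.11.5. Smooth muscle cells had at least 5 Myh11 UMIs, fewer than 5 of Dcn and none of Msln, Upk3b, Ptprc, Pecam1 or Cdh5. Endothelial cells had at least 3 of Pecam1 and Cdh5 together, at least 1 of Cdh5, and none of Ptprc, Msln or Upk3b. Leukocytes had at least 2 of Ptprc and none of Cdh5, Msln or Upk3b. The mesothelial gate set no limit on Dcn or Myh11. Doublets were scored with Scrublet and kept. Counts were summed per aorta and gated type (10 sums, 5 types by 2 aortas), the 10 gate genes were set aside, and edgeR 4.0.16 (R 4.3.3) fitted quasi-likelihood models with TMM factors, filterByExpr and p-values adjusted by Benjamini-Hochberg across every tested gene. A call needed an adjusted p under 0.05 and a log2 fold change over 1 in size. The code was tested on simulated data. Both comparisons share the mesothelial sums. With 1 library per aorta, p-values measure the spread between these 2 mice. The types of an aorta come from 1 suspension, so the aorta number pairs the sums, and a fit with it as a block was an alternative.

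Shares of cells with a UMI were taken after thinning each cell to 1000 UMIs, with exact Clopper-Pearson intervals at 95%. Folds against a group without a UMI use a floor of 3 UMIs over the group. Spread among cells and Leiden subclusters (leidenalg 0.10.2) are descriptions.

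Genes were named by rule: the 12 largest differences each way against fibroblasts and 6 against endothelial cells (at least 20 UMIs per aorta and 50 CPM in the higher type), the 15 leading genes of highest level, up to 6 called members per list with at least 20 CPM, and the transcripts the study follows. Kdr, Igfbp5, Tgfb2, Nr2f1, Nr2f2, Hopx and the genes described in subclusters were chosen after their values were seen. Some genes that the rules pick are not reported here. The members and gene lists were chosen with earlier results of these data known. Alternatives are given under the closing section: other size factors, DESeq2 1.42.0, no filter on low counts, other gates and depths, and leaving out each aorta.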

Additional observations from a re-analysis of the deposited data

How the results depend on the processing

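With members holding at least 5 Dcn or Myh11 UMIs left out, 11 and 5 mesothelial cells remained, since nearly every member holds Dcn. That alternative gave 491 genes against fibroblasts and 561 against endothelial cells (19.8% and 21.7% of them higher in mesothelial cells, against 46.8% and 50.2% in the results given), a share of 0.135% of cells, an eGFP share of 19.1% (2 of 11 and 1 of 5 cells), 5 leading genes and a Col18a1 log2 fold change of -11.41 (edgeR adjusted p = 0.136). It was not run for the other single genes. Thinned cells gave 1854 and 2042 genes and 0.67 for Col18a1 (edgeR adjusted p = 0.0665); they hold fewer UMIs by construction. Without the 51 members that held a Pdgfra UMI or at least 5 Myh11 UMIs, an alternative chosen after seeing the data, Col18a1 was at -0.0671, the eGFP share at 4.91% and the counts at 3423 and 3516. Requiring 2 eGFP UMIs gave 2.92%, a minimum of 5000 UMIs a mesothelial share of 4.02%, and 8-fold in place of 4-fold 136 leading genes. The cause was not tested for Col18a1.

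Leaving out 1 aorta of a type gave 2548 to 3099 genes against fibroblasts, 2741 to 3078 against endothelial cells, 0.75 to 1.02 for Col18a1, mesothelial shares of 2.83% to 3.77%, eGFP shares of 6.02% to 10.2% and 246 to 309 leading genes. In those fits the lone sum is assumed to vary like the other types. The replicate block, which pairs the types of an aorta, gave 3186 and 3326 genes and 0.87 for Col18a1, and changed no call among the genes named, 106 values called and 11 not. DESeq2 size factors, the DESeq2 test, no filter on low counts, a fit of only the types compared, a minimum of 5000 UMIs, Scrublet's doublets removed and a stricter gate gave between 2927 and 3539 genes in either comparison.

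Among single genes, signs turned for values near 0. Fbln1 was at 0.00959 without the same 51 members, and from -0.22 to 0.0874 when 1 aorta of a type was left out. Mfap2 was at -0.0154 with at least 5000 UMIs, -0.0524 with the stricter gate and from -1.11 (without mesothelial aorta 2, edgeR adjusted p = 0.000318) to 0.95 when 1 aorta was left out. Itga8 was called lower with Scrublet's doublets removed (-2.72), without those 51 members (-4.08) and without mesothelial aorta 1 (-1.04), and Ptgis was called higher in thinned cells (1.08). In the members 1 UMI stands for 0.564 CPM in aorta 1 and 1.16 CPM in aorta 2, so a gene near these levels was not detectable.

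List medians near 0 moved too, over 14 alternatives that leave out the one with 16 members. Against fibroblasts they ran from -1.30 to 0.57 for cytokines and defence proteins, -1.26 to 0.0540 for retinoid metabolism, -1.81 to -0.30 for fibrinolysis and coagulation (-0.30 without fibroblast aorta 1), -0.40 to -0.0638 for complement (-0.0638 without fibroblast aorta 1), -0.49 to -0.11 for integrins (-0.11 without mesothelial aorta 2), -1.07 to -0.27 for immediate early and heat shock genes and -1.08 to -0.44 for Wnt, FGF, hedgehog, VEGF and IGF genes. Against endothelial cells the interstitial matrix median ran from -0.47 to 0.41.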
